A study of Mus musculus with 13 samples.

Results

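Sox2, Sox3, Sox4, Sox11, Pax6, Meis1 and Rfx4 are transcription factor genes of neural progenitors, and all 7 were found by symbol among the 53653 genes counted in 13 RNA-seq libraries of mouse medulloblastoma. The tumours are of the Sonic Hedgehog kind and overexpress SmoM2, a constitutively active form of the Hedgehog transducer Smoothened. KO metastasis denotes 4 libraries (replicates 3, 4, 6 and 7) from the spinal cord of mice with SmoM2 overexpression and Kmt2d KO, written SmoM2-Kmt2dCf/Cf in the protocol and aged 5 to 8 weeks. KO primary denotes 4 libraries (replicates 3, 4, 6 and 7) from the cerebellum of the same genotype and age. Control primary (controls, for short) denotes 5 libraries (replicates 3 to 7) from cerebellar tumours with SmoM2 overexpression and no Kmt2d KO, aged 6 to 16 weeks. SmoM2 is thus shared by all 3 groups, and KO and control differ in age range as well as genotype. GFP-positive cells were sorted in each group, in pellets of 0.1 to 3 M cells for metastases and 1 to 5 M cells for primaries. KMT2D, the product of the deleted gene, places methyl groups on histone H3 at enhancers. What drives the Cre recombinase, and which part of Kmt2d is removed, is not stated in the labels. Nothing in the labels ties libraries to individual mice, so the p-values below measure the spread between these libraries, which may be technical.

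SOX proteins bind DNA through a high mobility group domain and act with partner factors such as POU proteins. Sox2 and Sox3 belong to the SOXB1 group, which maintains neural stem and progenitor cells, and Sox4 and Sox11 to the SOXC group, which acts in committed progenitors and young neurons. In the cerebellum granule cell precursors carry Pax6, a paired-domain homeobox factor, and Meis1, a TALE homeobox factor that partners with PBX proteins. Rfx4 encodes a winged-helix factor that binds X-box sites and is needed for neural tube patterning and cilia in the mouse. In Sonic Hedgehog medulloblastoma Sox2 is known as a marker of a small population of stem-like, slowly dividing tumour cells.

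The 7 genes lie on 7 chromosomes of GRCm38 in GENCODE M21, and all are protein coding. Sox2 is on chromosome 3 from 34650405 to 34652461 and Sox3 on chromosome X from 60891366 to 60893430. Sox4 is on chromosome 13 from 28948919 to 28953713 and Sox11 on chromosome 12 from 27334264 to 27342574. Pax6 is on chromosome 2 from 105668900 to 105697364, Meis1 on chromosome 11 from 18879817 to 19018985 and Rfx4 on chromosome 10 from 84756062 to 84906538. Sox2 lies within Sox2ot, a noncoding gene on the same strand with no exon over it, which averaged 4.31, 2.13 and 2.43 CPM in KO metastasis, KO primary and control primary libraries. The antisense neighbour Pax6os1 had 1.33 CPM or less and Gm26735, whose exons overlap Sox4 on the opposite strand, 0.0542 CPM or less. Gm24226, inside Rfx4 on the opposite strand, had 0.140 CPM or less. Whether the counting used strand was not stated, so reads of opposite-strand partners cannot be told apart. The 5 annotated genes overlapping Meis1 were not found by symbol among the counted genes, so they have no levels here. Of these, Gm37818 on the same strand and Gm16140 on the opposite strand share exon bases with Meis1.

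The promoter sequences of Sox2 and Rfx4 are shown because these genes had the widest differences between knockout and control libraries. They come from RefSeq on GRCm38.p6, which had an entry for 6 of the 7 genes. Each run holds the 250 bases before the RefSeq start site, on the plus strand, 5′ to 3′. Capitals mark CCAAT boxes (CCAAT, or ATTGG on the other strand) and SOX sites (ACAAAG or ACAATG, on either strand).
Sox2, chr3:34649745-34649994: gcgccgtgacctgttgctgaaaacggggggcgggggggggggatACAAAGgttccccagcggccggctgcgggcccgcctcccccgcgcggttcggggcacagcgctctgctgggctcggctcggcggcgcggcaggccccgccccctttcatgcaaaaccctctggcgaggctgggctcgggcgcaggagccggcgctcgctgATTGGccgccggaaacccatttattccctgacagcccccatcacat
Rfx4, chr10:84755798-84756047: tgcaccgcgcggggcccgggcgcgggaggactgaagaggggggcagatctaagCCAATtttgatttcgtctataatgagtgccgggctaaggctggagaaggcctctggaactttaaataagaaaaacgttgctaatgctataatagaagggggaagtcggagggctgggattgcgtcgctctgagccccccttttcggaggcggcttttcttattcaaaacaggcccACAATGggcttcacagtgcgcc
The Sox2 window, with 72% G and C, held an ATTGG 46 bases before the start site and an ACAAAG 206 bases before it. The Rfx4 window, with 54.8% G and C, held a CCAAT 197 bases and an ACAATG 22 bases before the start site. A CCAAT box was in 33.8% and a SOX site in 25.2% of all 32851 promoter windows of the same length. Among the members, CCAAT boxes were also found in the first listed promoters of Sox4, Sox11, Pax6 and Meis1, with 4 copies in Sox4. SOX sites were also found in the promoter of Meis1 and in the second listed promoter of Pax6. The core of the GLI site, CCACCCA, was in none of the members' windows and in 8.11% of all windows. The X-box core GTTGCC was in 1, the first Pax6 promoter, and in 10.4% of all windows. These matches are descriptions of the letters only.

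The libraries held 23545383 to 41412288 counts. Levels are given as CPM after TMM scaling, a gene's share of the library's counts corrected for composition, with SD over libraries. Kmt2d itself was at 115, 105, 111 and 131 CPM over KO metastases 3, 4, 6 and 7, at 91.7, 93.0, 111 and 168 CPM over KO primaries 3, 4, 6 and 7 and at 78.1, 104, 175, 129 and 141 CPM over controls 3 to 7. These counts span the whole gene, so they do not check a deletion of part of it. Receptor genes of the olfactory and vomeronasal epithelia, with no known role in these cells, summed to 332 to 1679 CPM in 4 libraries (KO metastases 6 and 7, KO primary 7 and control 3) and to 5.59 to 81.3 CPM in the others. Xist, transcribed from the inactive X chromosome of females, reached 324 to 510 CPM in controls 5, 6 and 7 and no more than 1.02 CPM elsewhere, so all KO libraries lacked it. The mitochondrial share of counts was 2.06% in KO metastasis 3 and 0.633% to 0.876% in the others.

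The labels call the primary tumour cells granule cell precursors, and marker lists were read against that. The summed level of 7 granule cell precursor markers was 2594 to 3755 CPM in KO metastasis, 2664 to 3161 CPM in KO primary and 1960 to 2531 CPM in control primary libraries, and none was at 0 in any library. The 10 markers of astrocytes and Bergmann glia summed to 782 to 1452, 785 to 1306 and 693 to 914 CPM in the same order of groups, with none at 0. Oligodendrocyte markers summed to 170 to 1895 CPM in KO metastasis, 66.8 to 97.9 CPM in KO primary and 143 to 399 CPM in control primary libraries. Their precursor markers summed to 206 to 360, 264 to 547 and 268 to 612 CPM, and microglia and macrophage markers to 9.79 to 169, 2.12 to 14.2 and 7.11 to 64.4 CPM. Mature granule neuron markers summed to 3.48 to 12.7 CPM in KO metastasis, 8.75 to 40.1 CPM in KO primary and 12.6 to 119.5 CPM in control primary libraries. Ependymal and choroid plexus, unipolar brush cell, GABAergic and endothelial markers summed to at most 15.9, 14.7, 1.37 and 7.34 CPM in KO metastasis libraries, 18.0, 19.0, 2.52 and 11.9 CPM in KO primary and 55.1, 37.8, 6.20 and 20.7 CPM in control primary libraries. All 5 GABAergic markers were at 0 in at least 1 metastasis. In sorted bulk RNA a change in the share of cells that carry a gene and a change in its RNA per cell cannot be told apart.

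**Figure D1:**
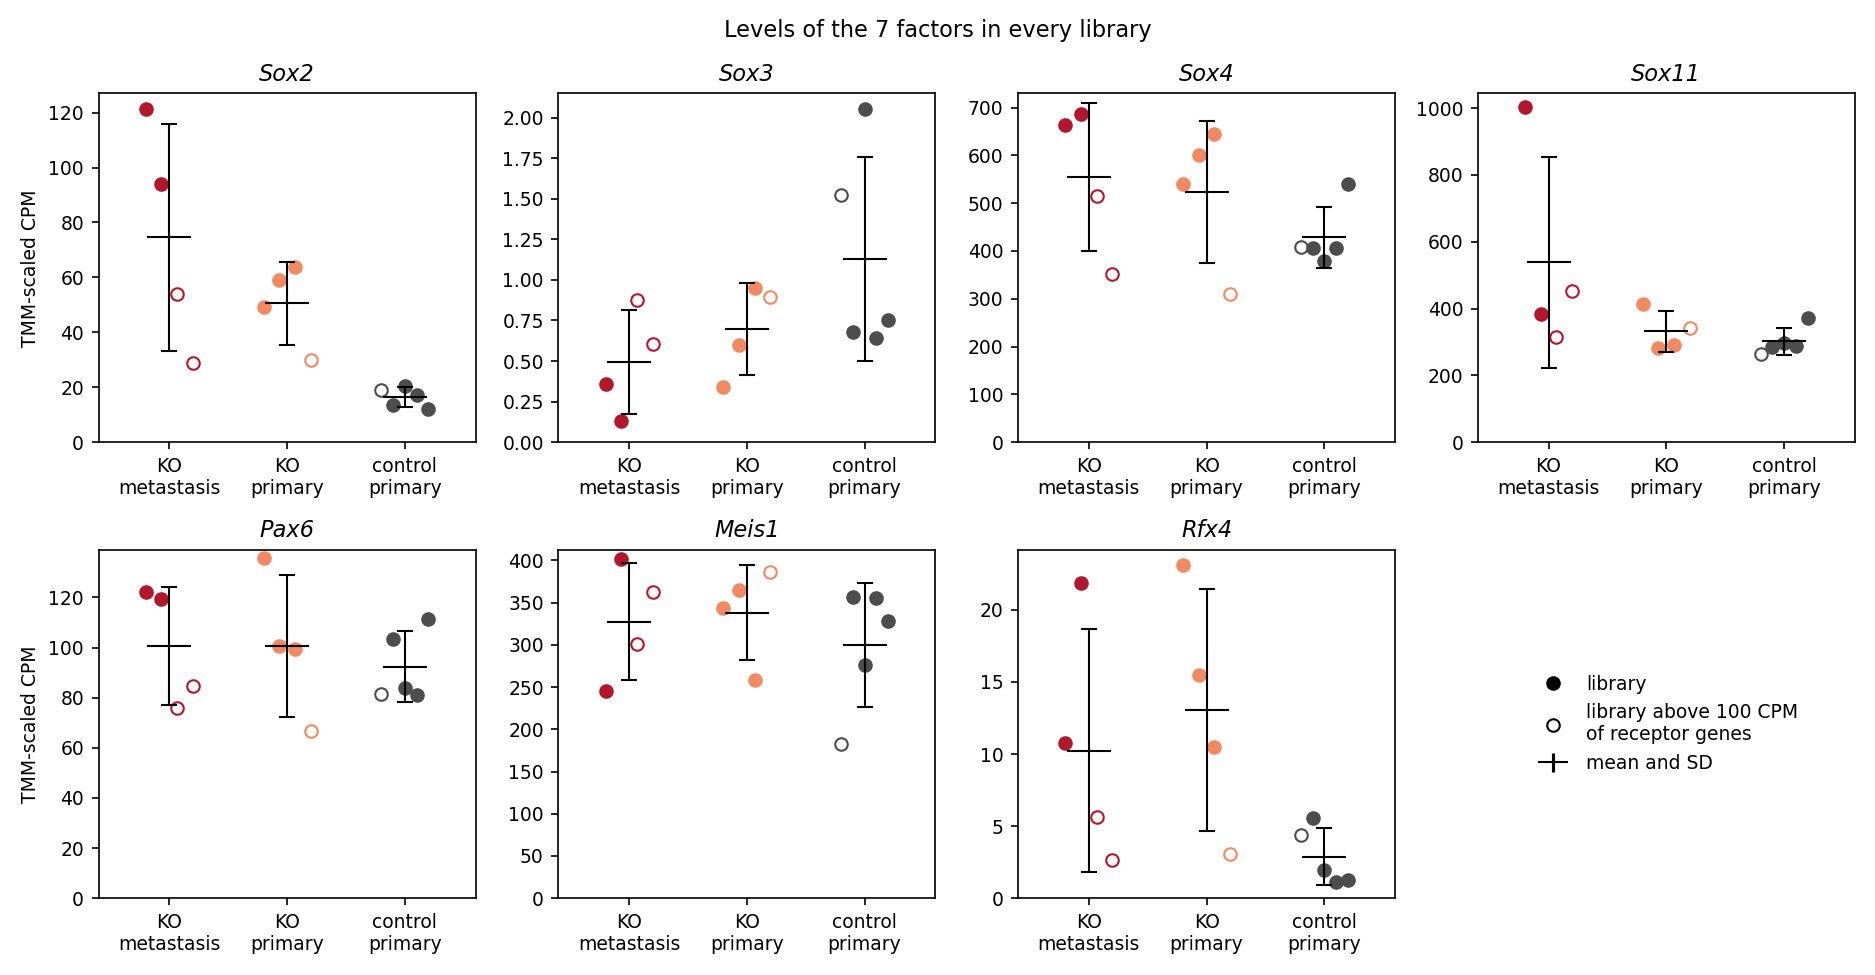
Levels of the 7 factors in every library, as TMM-scaled CPM, with KO metastasis, KO primary and control primary from left to right. Each circle is a library (open where receptor genes drew over 100 CPM), and bars are the mean and SD. All 8 KO libraries lie above all 5 control libraries for Sox2, from 28.7 CPM upward against at most 20.5 CPM, and the groups overlap for the other 6 genes.

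Levels were divided by all annotated exon bases of a gene, 2057 for Sox2, 4795 for Sox4, 10532 for Meis1 and 11694 for Pax6. Genes whose transcripts use only part of these bases read too low, so the order between genes is approximate. On this scale Sox4 was the most abundant of the 7 in all 3 groups, at a mean of 116 CPM per kb in KO metastasis, 109 CPM per kb in KO primary and 89.3 CPM per kb in control primary libraries. Sox11 followed at 64.8, 39.9 and 36.3 CPM per kb in the same order. Sox2 came next in KO metastases at 36.2 CPM per kb, ahead of Meis1 at 31.1 CPM per kb, although in individual metastases the order held in 2 of 4. In KO primary tumours Meis1, at 32.1 CPM per kb, stood above Sox2, at 24.6 CPM per kb, with overlapping libraries. In control primary tumours Sox2, at 7.97 CPM per kb, was level with Pax6, at 7.89 CPM per kb, and both were below every library's Meis1. Rfx4 had 2.17, 2.76 and 0.606 CPM per kb and Sox3 0.239, 0.337 and 0.547 CPM per kb in KO metastasis, KO primary and control primary libraries, so these 2 were the least abundant throughout. Their library values overlapped in control primary libraries only. The other overlapping neighbours in these orders were Sox4 and Sox11, and Sox11 and Sox2, in KO metastases and Sox11 and Meis1 in both sets of primaries.

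Sox2 was the member whose level was raised in the knockout tumours. It was at 121, 94.0, 54.0 and 28.7 CPM over KO metastases 3, 4, 6 and 7, and at 49.3, 59.1, 63.9 and 29.8 CPM over KO primaries 3, 4, 6 and 7. Over controls 3 to 7 its level was 18.8, 13.6, 20.5, 17.1 and 11.9 CPM. The lowest KO library thus exceeded the highest control library, and the metastases spread more widely than either set of primaries. The means were 74.5 ± 41.3 CPM in KO metastasis (SD, n = 4), 50.5 ± 15.1 CPM in KO primary (n = 4) and 16.4 ± 3.56 CPM in control primary libraries (n = 5). KO primary tumours had a log2 change of 1.63 against control primary tumours (SE 0.349, 95% interval 0.88 to 2.38, a 3.09-fold level, edgeR quasi-likelihood test, Benjamini-Hochberg adjusted p = 0.0214). KO metastases had a log2 change of 2.19 against the same control libraries (SE 0.353, interval 1.43 to 2.94, a 4.55-fold level, edgeR adjusted p = 0.00406). KO metastases and KO primary tumours overlapped, at a log2 difference of 0.56 (SE 0.365, interval -0.22 to 1.35, edgeR adjusted p = 0.9997).

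Sox2 was the 1 member of 7 called in KO primary against control primary tumours, where 2.93% of the 22265 genes tested were called, 1.15% as higher and 1.78% as lower. It was likewise the 1 of 7 called in KO metastases against control primary tumours, where 3.08% were called, 1.06% as higher and 2.02% as lower. Both comparisons use the same 5 control libraries. KO primary and control libraries did not overlap in 7.42% of genes, with the KO libraries above in 3.57% and below in 3.85%. KO metastasis and control libraries did not overlap in 6.82% of genes, with the KO libraries above in 2.81% and below in 4.01%. The call for KO primary tumours was lost without KO primary 3 (edgeR adjusted p = 0.0620), KO primary 4 (0.0876), KO primary 6 (0.0870), control primary 4 (0.0746), control primary 6 (0.0534) or control primary 7 (0.0686), at log2 changes of 1.50 to 1.65, while the call for metastases was kept in all 9 such fits. Without the 3 control libraries that carried Xist, the Sox2 change was 1.73 in KO primary and 2.32 in KO metastasis with 2 controls left, and neither was called (edgeR adjusted p = 0.305 and 0.133).

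The libraries high in receptor counts were also low in Sox2 among the KO libraries. Sox2 was at 28.7 to 54.0 CPM in those 3 KO libraries and at 49.3 to 121 CPM in the other 5, so the ranges met only between 49.3 and 54.0 CPM. KO metastases 6 and 7 also had higher oligodendrocyte marker sums, 1895 and 809 CPM, than KO metastases 3 and 4, 170 and 315 CPM. Their microglia and macrophage sums were 169 and 128 CPM, against 33.1 and 9.79 CPM. In KO primary 7 the 2 sums were 97.9 and 7.07 CPM. The part of these differences in the Sox2 levels was not tested. Without the 4 high libraries of all groups the Sox2 change was 1.88 for KO primary (SE 0.201, edgeR adjusted p = 4.71e-04) and 2.79 for KO metastasis (SE 0.219, edgeR adjusted p = 1.26e-04) against control primary tumours. That fit kept only KO metastases 3 and 4. It left out the KO libraries lowest in Sox2, so larger changes follow from the choice of libraries. Markers of astrocytes and Bergmann glia, which also carry Sox2, were read beside it. Without Sox9 the 9 other markers of that list summed to 328 to 762 CPM in KO metastasis, 345 to 659 CPM in KO primary and 415 to 611 CPM in control primary libraries, ranges that overlap. Of all 10, 1 rose (Sox9), 1 fell (Aqp4, the astrocytic water channel) and 8 were not called in KO primary against control primary tumours, with a median log2 change of -0.23. In KO metastases against control primary tumours 1 rose (Sox9) and 9 were not called, with a median of 0.12. Over all genes tested, 1.15% were called higher and 1.78% lower in KO primary tumours, with a median of -0.05. In KO metastases these values were 1.06%, 2.02% and -0.04. Aqp4 averaged 2.32 CPM in KO primaries and 16.6 CPM in controls (edgeR adjusted p = 0.0366), whereas S100b, a calcium-binding protein of glia, averaged 49.3 CPM in KO primaries and 22.7 CPM in controls without a call (edgeR adjusted p = 0.311). Of the 7 granule cell precursor markers, 1 rose and 6 were not called in KO primary against control primary tumours (median 0.26), and 2 rose and 5 were not called in KO metastases (median 0.43), beside the same shares and medians over all genes tested. Atoh1, which defines these precursors, averaged 684 CPM in KO primaries, 629 CPM in metastases and 350.4 CPM in controls (edgeR adjusted p = 0.0199 and 0.0374), and Barhl1, a homeobox factor of the same cells, was the other call in metastases. Mycn, a Hedgehog target, averaged 521 CPM in KO primaries, 414 CPM in metastases and 567 CPM in controls without a call. The part of these cells in the Sox2 difference was not tested.

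**Figure D2:**
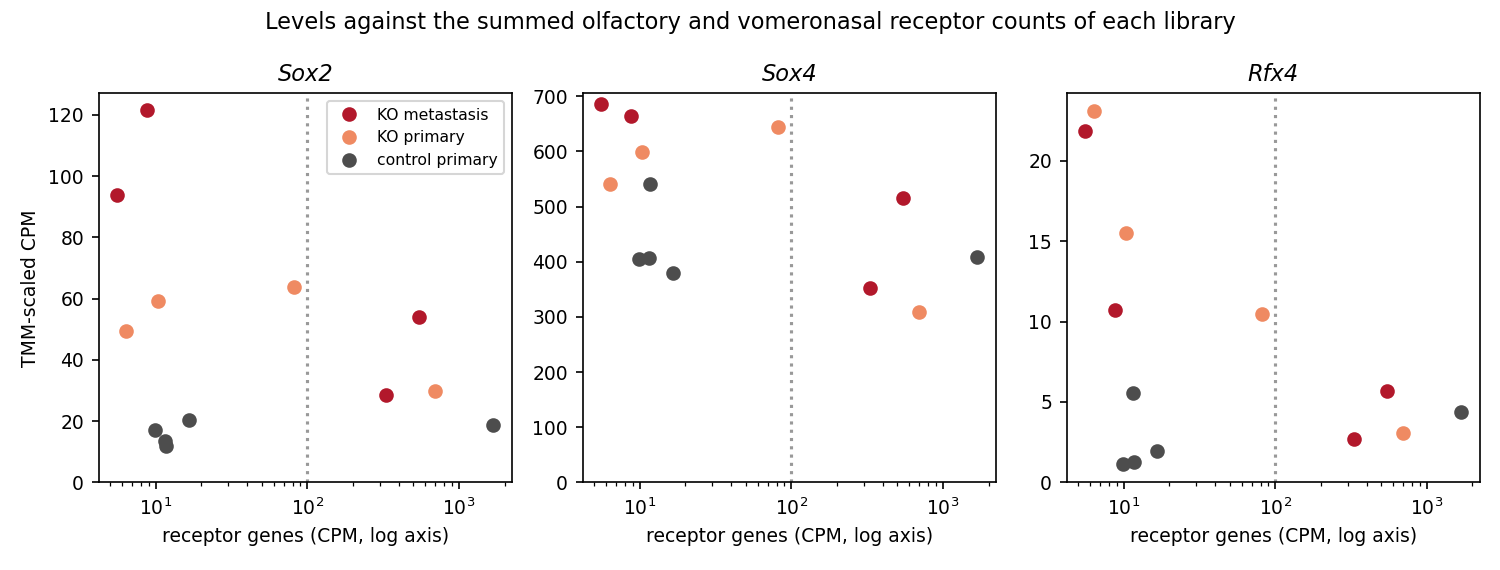
Levels of Sox2, Sox4 and Rfx4 (TMM-scaled CPM) against the summed olfactory and vomeronasal receptor counts of each library (CPM of the unscaled total, log axis), with the limit of 100 CPM as a dotted line. The 3 KO libraries right of the line lie at 28.7 to 54.0 CPM of Sox2 and 2.68 to 5.65 CPM of Rfx4, and the other 5 at 49.3 to 121 and 10.5 to 23.1 CPM.

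Sox3, the X-linked SOXB1 gene, was barely counted. It had 5 to 25 counts in KO metastasis, 13 to 36 in KO primary and 20 to 54 in control primary libraries. These made means of 0.493 ± 0.321 CPM in KO metastasis, 0.696 ± 0.284 CPM in KO primary and 1.13 ± 0.629 CPM in control primary libraries (SD, n = 4, 4 and 5). The highest values were in control primary 5 and 3, at 2.05 and 1.52 CPM, and all groups overlapped. The log2 change was -0.70 in KO primary (SE 0.646, interval -2.08 to 0.69) and -1.19 in KO metastasis (SE 0.657, interval -2.60 to 0.22) against control primary tumours, with no call (edgeR adjusted p = 0.810 and 0.474). Sox3 thus pointed the other way from Sox2, at a depth that left both intervals across 0.

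Sox4 was at 309 CPM or more in every library. Its level was 664, 686, 515 and 352 CPM over KO metastases 3, 4, 6 and 7, and 541, 599.8, 645 and 309 CPM over KO primaries 3, 4, 6 and 7. Over controls 3 to 7 it was 408, 407, 379, 405 and 541 CPM. The KO libraries lay on both sides of the controls, with KO metastasis 7 and KO primary 7 lowest of all 13. The log2 change was 0.29 in KO primary (SE 0.225, interval -0.19 to 0.77, edgeR adjusted p = 0.718) and 0.37 in KO metastasis (SE 0.225, interval -0.11 to 0.86, edgeR adjusted p = 0.537) against control primary tumours. The 3 KO libraries high in receptor counts held 309 to 515 CPM and the other 5 541 to 686 CPM. Without the high libraries Sox4 passed the test in KO metastases (log2 change 0.65, SE 0.168, edgeR adjusted p = 0.0444) and not in KO primary tumours (0.47, SE 0.151, edgeR adjusted p = 0.0862). That fit left out the KO libraries lowest in Sox4 and kept only KO metastases 3 and 4.

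Sox11, the other SOXC gene, stood out in 1 metastasis. It was at 1004, 384, 315 and 451 CPM over KO metastases 3, 4, 6 and 7, and at 413, 281, 291 and 342 CPM over KO primaries 3, 4, 6 and 7. Over controls 3 to 7 its level was 265, 285, 296, 289 and 372 CPM. KO metastasis 3, the library with the highest mitochondrial share, had over 2 times the level of any other library. KO metastases 4 and 7, at 384 and 451 CPM, also lay above the highest control, at 372 CPM. KO metastasis 6, at 315 CPM, lay within the control range. The log2 change in KO metastases was 0.84 against control primary tumours (SE 0.276, interval 0.25 to 1.43, edgeR adjusted p = 0.141), and 0.35 without KO metastasis 3. Against KO primary tumours it was 0.70 (SE 0.293, interval 0.07 to 1.33, edgeR adjusted p = 0.9997), and 0.25 without KO metastasis 3. In KO primary against control primary tumours it was 0.14 (SE 0.276, interval -0.45 to 0.73, edgeR adjusted p = 0.956). Sox11 passed the test in KO metastases against control primary tumours under DESeq2 (log2 change 0.85, adjusted p = 0.0344) and without the libraries high in receptor counts (1.17, SE 0.302, edgeR adjusted p = 0.0452). The latter fit kept only KO metastases 3 and 4, and thus the library whose removal took the change to 0.35.

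The granule lineage homeobox genes were close to level across the groups. Pax6 averaged 101 ± 23.7 CPM in KO metastasis (76.1 to 122), 101 ± 28.2 CPM in KO primary (66.6 to 136) and 92.3 ± 14.2 CPM in control primary libraries (81.0 to 111). Its log2 change was 0.12 in both KO primary and KO metastasis against control primary tumours (SE 0.206 and 0.206, both intervals -0.32 to 0.57, edgeR adjusted p = 0.942 and 0.929) and 0.00 between KO metastases and KO primary tumours (SE 0.217). Meis1 averaged 328 ± 69.0 CPM in KO metastasis (245 to 402), 338 ± 55.9 CPM in KO primary (258 to 386) and 299.9 ± 73.1 CPM in control primary libraries (183 to 357), with control 3 lowest. Its log2 change was 0.17 in KO primary and 0.13 in KO metastasis against control primary tumours (SE 0.205 and 0.205, intervals -0.27 to 0.61 and -0.31 to 0.57, edgeR adjusted p = 0.886 and 0.925) and -0.05 between KO metastases and KO primary tumours (SE 0.216, interval -0.51 to 0.42). Both intervals against the controls leave room for changes of up to about 0.6 in log2, and the sign of these small values turned in some fits. Among the KO libraries Pax6 split with the receptor counts. It was at 66.6 to 84.6 CPM in the 3 high libraries and 99.4 to 136 CPM in the other 5. Meis1 did not split there, at 301 to 386 and 245 to 402 CPM. In the controls Meis1 was at 183 CPM in control 3, the high library, and at 276 to 357 CPM in the others. Pax6 was at 81.6 CPM in control 3 and at 81.0 to 111 CPM in the other controls. The share of all genes tested that split with the receptor counts was not computed. The splits of Pax6, Sox4 and Rfx4 therefore cannot be weighed against it.

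Rfx4 had the largest fitted change of the 7 in KO primary tumours and the widest scatter. It was at 10.7, 21.9, 5.65 and 2.68 CPM over KO metastases 3, 4, 6 and 7, and at 23.1, 15.5, 10.5 and 3.09 CPM over KO primaries 3, 4, 6 and 7. Over controls 3 to 7 its level was 4.37, 5.54, 1.98, 1.13 and 1.29 CPM. In each KO group the libraries high in receptor counts lay in the control range or close to it, and the other 5 KO libraries lay above every control. The share of all genes in which those 5 lie above every control was not computed, and each full KO group overlapped the controls. The log2 change against control primary tumours was 2.19 in KO primary (SE 0.671, interval 0.75 to 3.63, edgeR unadjusted p = 0.00579, adjusted p = 0.114) and 1.84 in KO metastasis (SE 0.666, interval 0.41 to 3.27, edgeR unadjusted p = 0.0156, adjusted p = 0.196), neither called. Between KO metastases and KO primary tumours it was -0.35 (SE 0.690, interval -1.83 to 1.13). In KO primary tumours Rfx4 passed the test under DESeq2 (adjusted p = 0.0192), limma voom with quality weights (adjusted p = 0.00711), without KO primary 7 (edgeR adjusted p = 0.0462) and without all 4 libraries high in receptor counts (log2 change 2.72, SE 0.545, edgeR adjusted p = 0.0135). Without those 4 libraries it also passed in KO metastases (2.72, SE 0.583, edgeR adjusted p = 0.0227). That fit left out the KO libraries lowest in Rfx4 and kept only KO metastases 3 and 4.

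**Figure D3:**
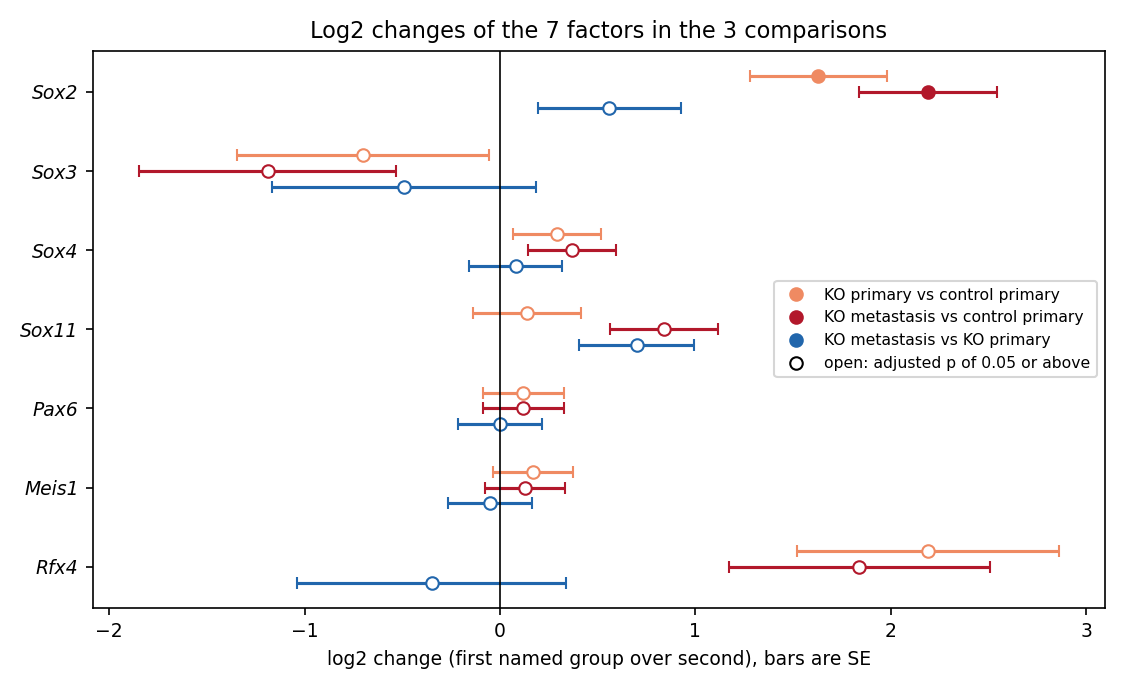
Log2 changes of the 7 factors in the 3 comparisons from edgeR, with SE bars. Points are filled where the adjusted p is below 0.05. The filled points are those of Sox2 in KO primary (1.63) and KO metastasis (2.19) against control primary tumours, and Rfx4 reaches 2.19 and 1.84 with SE bars of about 0.67.

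No member was called between KO metastases and KO primary tumours, where 1 gene of 22265 was called (0.00449%). That gene was Mbp, a myelin protein gene of oligodendrocytes, with means of 245 CPM in metastases and 44.2 CPM in KO primaries (edgeR adjusted p = 0.0485). At an unadjusted edgeR p below 0.05 there was 1 member of 7, Sox11, and 3.23% of all genes. The libraries of these groups overlapped for all 7 members and did not overlap in 1.72% of genes, with the metastases above in 0.683% and below in 1.04%. DESeq2 and limma voom also called 0 members here, and 33 and 2 genes in all. The members' median log2 change was 0.00 between KO metastases and KO primary tumours, 0.17 in KO primary and 0.37 in KO metastasis against control primary tumours. Over all genes tested the medians were 0.00, -0.05 and -0.04.

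**Figure D4:**
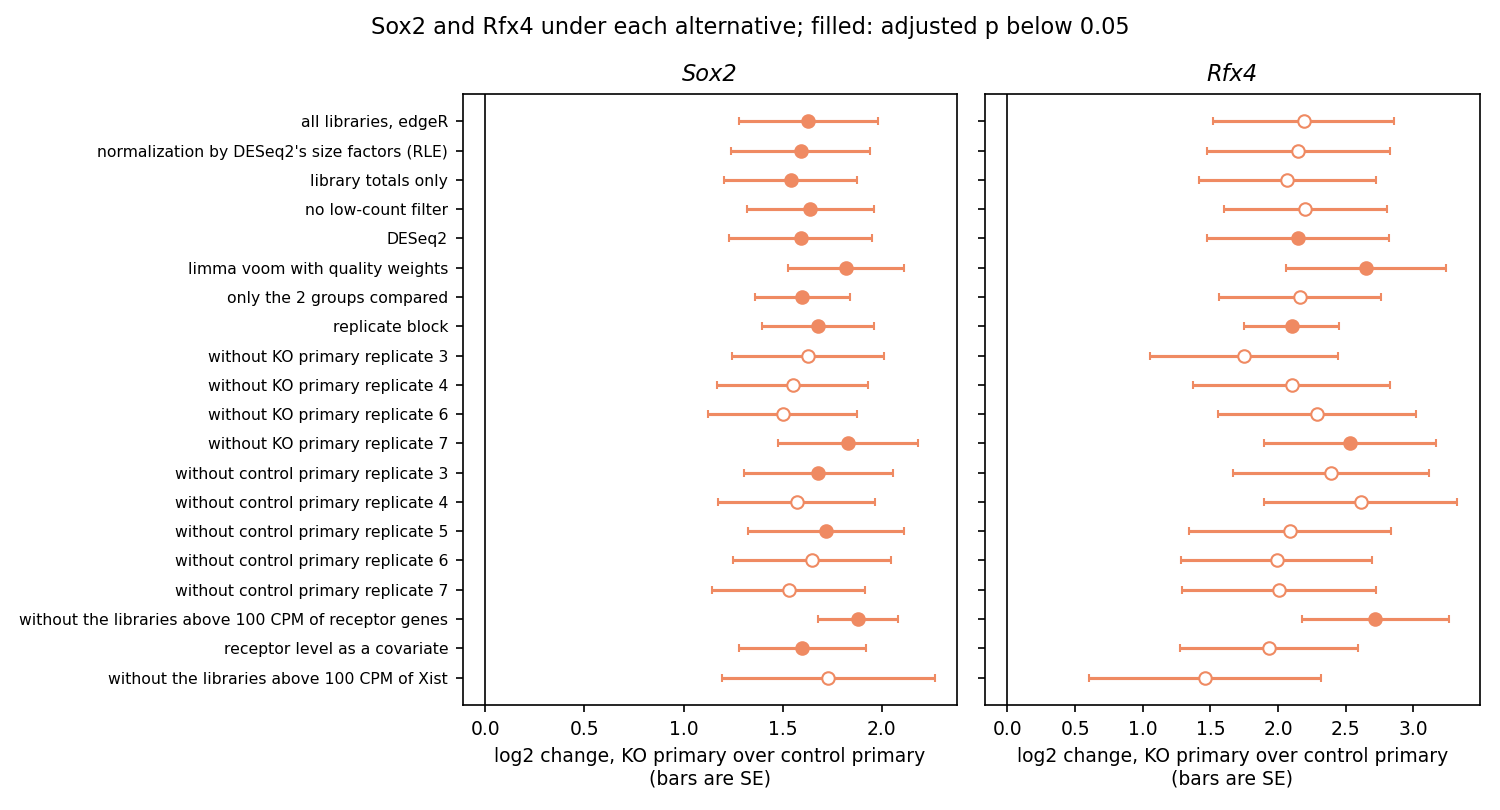
Log2 changes of Sox2 and Rfx4 in KO primary over control primary tumours under edgeR with all libraries and 19 alternatives, with SE bars. Filled points have an adjusted p below 0.05. Sox2 stays between 1.50 and 1.88 and loses its call in 7 alternatives, and Rfx4 gains a call in 5.

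Among the other SOX genes only Sox9, a factor of glial and stem cell fate that is also on the list of astrocyte markers, passed the test, 1 of 12 other family members tested. Over all genes tested 1.15% were called higher in KO primary and 1.06% in KO metastasis against control primary tumours. Sox9 was at 395, 689.9, 507 and 454 CPM over KO metastases 3, 4, 6 and 7, and at 727, 647, 665 and 440.0 CPM over KO primaries 3, 4, 6 and 7. Over controls 3 to 7 its level was 278, 230, 281, 336 and 311 CPM, below every KO library. The log2 change was 1.11 in KO primary (SE 0.182, edgeR adjusted p = 0.00445) and 0.83 in KO metastasis (SE 0.182, edgeR adjusted p = 0.0236) against control primary tumours. The call for KO primary tumours was kept in all 9 fits that left out 1 library, and that for KO metastases was lost in 5 of 9, without KO metastasis 4 or 6 or control primary 4, 5 or 7 (edgeR adjusted p up to 0.0881). Sox1, the remaining SOXB1 gene, stood at 67.7 ± 15.3 CPM in KO primary and 43.1 ± 5.45 CPM in control primary libraries without a call (edgeR adjusted p = 0.0963). Sox10, a factor of oligodendrocyte precursors, stood at 7.83 ± 9.63 CPM in KO metastasis, 5.97 ± 4.53 CPM in KO primary and 19.8 ± 10.8 CPM in control primary libraries without a call. Sox21, which counteracts SOXB1 factors, had the smallest p of the family between KO metastases and KO primary tumours, at 0.341 ± 0.179 and 0.990 ± 1.11 CPM (edgeR adjusted p = 0.9997).

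The families of the other members showed no call in the main edgeR fit, over all 13 libraries with TMM scaling and no covariate. Of 3 PAX genes tested besides 6 below the filter, none passed. Pax3 stood at 22.8 CPM in KO metastasis, 8.03 CPM in KO primary and 8.60 CPM in control primary libraries (edgeR adjusted p = 0.470 against control primary), and Pax5 at 0.270 and 0.131 CPM in KO primary and control primary libraries. None of 9 TALE genes passed, and Pbx3, a MEIS partner, stood at 86.5 ± 9.31 CPM in KO metastasis, 99.0 ± 15.1 CPM in KO primary and 122.6 ± 22.9 CPM in control primary libraries (edgeR adjusted p = 0.131 and 0.453 against control primary). Its change of -0.50 in KO metastases passed with library totals only (-0.55, edgeR adjusted p = 0.0339), under DESeq2 (adjusted p = 0.0225), limma voom (adjusted p = 0.00232) and without control 3 (-0.60, edgeR adjusted p = 0.0154), and its change of -0.31 in KO primary tumours passed under limma voom (adjusted p = 0.0288). None of 7 RFX genes passed. Rfx3, a factor of ciliogenesis, was at 96.3 ± 9.87, 83.0 ± 10.7 and 80.8 ± 17.1 CPM in KO metastasis, KO primary and control primary libraries, or 8.72, 7.52 and 7.32 CPM per kb against the 2.17, 2.76 and 0.606 CPM per kb of Rfx4, and Rfx2 averaged 3.27 CPM in KO primaries and 4.22 CPM in controls. None of 15 cilium genes, best known as RFX targets, passed, with medians of -0.17 between KO metastases and KO primary tumours, 0.06 in KO primary and -0.04 in KO metastasis against control primary tumours. Ift74, an intraflagellar transport gene, came closest at 57.8 ± 9.85 CPM in KO primary and 41.3 ± 1.57 CPM in control primary libraries (log2 change 0.49, SE 0.125, edgeR adjusted p = 0.0539). It passed there in 6 of 19 alternatives, among them DESeq2 (adjusted p = 0.00291) and limma voom (adjusted p = 0.00217), and in KO metastases against control primary tumours under those same tools (adjusted p = 0.00391 and 0.0219). Kif3a, a ciliary motor subunit, had 120.9 CPM in metastases and 137 CPM in KO primaries. None of 4 POU genes that partner SOX factors passed. Pou3f2 stood at 143 ± 49.6 CPM in KO metastasis, 120.3 ± 28.6 CPM in KO primary and 85.8 ± 19.8 CPM in control primary libraries (edgeR adjusted p = 0.128 and 0.401 against control primary), and Pou3f1 at 0.799 and 1.62 CPM in KO metastasis and KO primary libraries. In KO metastases Pou3f2 passed under DESeq2 (adjusted p = 0.0260), without the libraries high in receptor counts (edgeR adjusted p = 0.0275) and with receptor level as a covariate (edgeR adjusted p = 0.0285). Only KO metastases 3 and 4 remained in the fit without the high libraries.

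**Figure D5:**
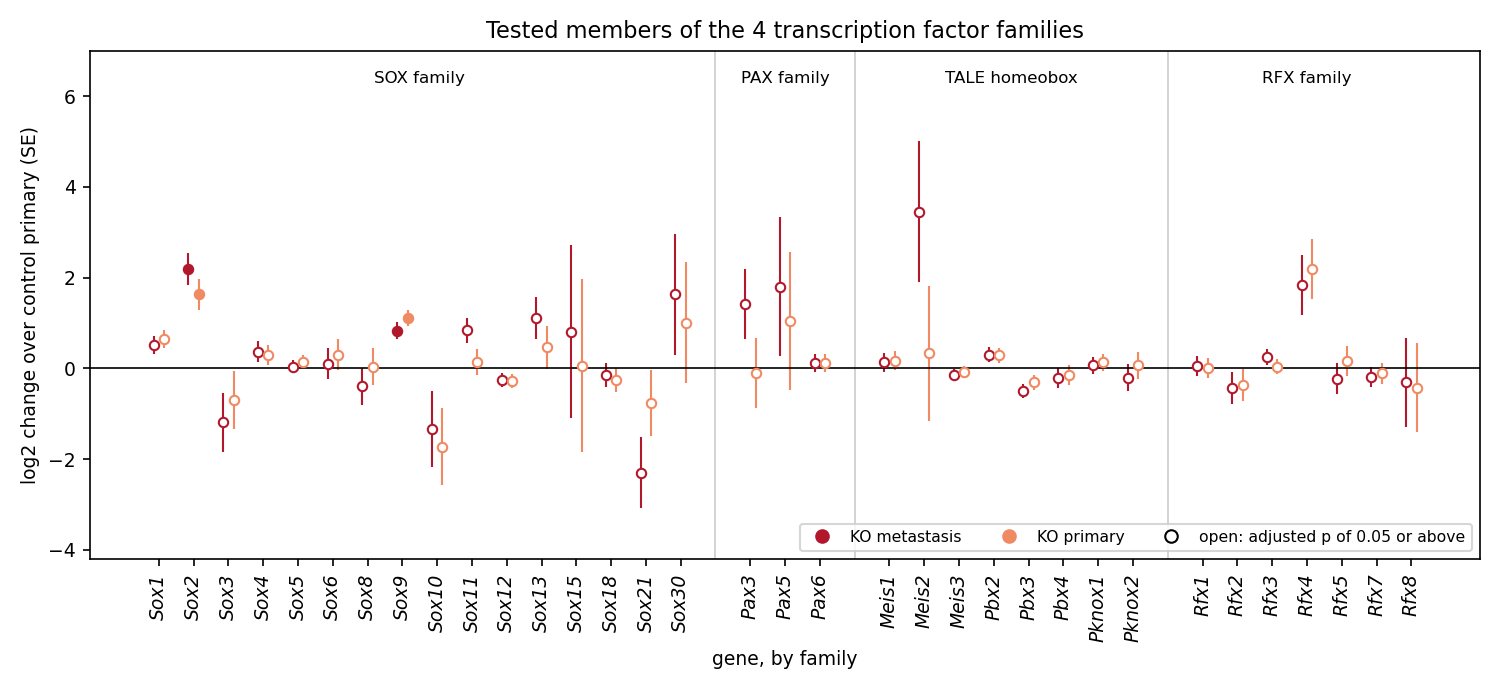
Log2 changes over control primary tumours, with SE bars, of tested members of the SOX, PAX, TALE homeobox and RFX families in KO metastasis and KO primary tumours. The filled points (adjusted p below 0.05) are those of Sox2 and Sox9, and Meis2 and Pax5, which have few counts in control primary libraries, carry wide bars.

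Genes of neural progenitors other than the 7 were read from a list of 12, of which 11 were tested. In KO primary against control primary tumours 3 rose, none fell and 8 were not called, with a median log2 change of 0.40, beside 2.93% called, 1.15% called higher and a median of -0.05 over all genes tested. Vim, the intermediate filament of radial glia and progenitors, rose to 356 ± 96.6 CPM in KO primary tumours, against 138 ± 22.0 CPM in control primary tumours (log2 change 1.37, SE 0.248, edgeR adjusted p = 0.00815), and kept its call in all 9 fits that left out 1 library. Hes1, a Notch effector that holds back differentiation, rose to 54.9 ± 27.3 CPM against 11.7 ± 7.63 CPM (log2 change 2.23, SE 0.534, edgeR adjusted p = 0.0389), with KO primary 7 inside the control range. Prom1, the gene of the surface marker CD133, rose to 63.6 ± 19.0 CPM against 24.8 ± 9.32 CPM (log2 change 1.36, SE 0.320, edgeR adjusted p = 0.0356). The calls of Hes1 and Prom1 were each lost in 6 of 9 such fits, without KO primary 3, 4 or 6 or control primary 4, 6 or 7 (edgeR adjusted p up to 0.142 and 0.152). In KO metastases against control primary tumours 2 of 11 rose and 9 were not called, with a median of 0.17, beside 3.08% called, 1.06% called higher and a median of -0.04 over all genes tested. Vim stood at 468 ± 188 CPM in KO metastases (log2 change 1.76, SE 0.250, edgeR adjusted p = 0.00186, kept in all 9 fits) and Hes1 at 59.9 ± 26.8 CPM (2.36, SE 0.536, edgeR adjusted p = 0.0288, lost in 5 of 9, without KO metastasis 3, 4 or 6 or control primary 6 or 7). Nes, which encodes nestin and is a known SOX2 target, stood at 132 ± 57.5, 128 ± 45.9 and 97.2 ± 26.1 CPM in KO metastasis, KO primary and control primary libraries without a call and was chosen for mention after its values were seen. Without the 3 control libraries that carried Xist, no call on this list or for Sox9 was kept. Sox9 then stood at log2 changes of 1.37 in KO primary and 1.11 in KO metastasis (edgeR adjusted p = 0.0953 and 0.203), Vim at 1.60 and 2.02 (0.155 and 0.0813), Hes1 at 3.19 and 3.32 (0.113 and 0.109) and Prom1 in KO primary at 1.90 (0.109). Msi1, an RNA-binding protein of stem cells, averaged 17.6 CPM in metastases and 11.1 CPM in KO primaries without a call.

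Of 4 genes listed as SOXC targets (Tubb3, Map2, Dcx and Tead2), 1 fell and 3 were not called in both comparisons with control primary tumours, with a median log2 change of -0.41 in each, beside 1.78% of all genes tested called lower in KO primary and 2.02% in KO metastasis. Map2 averaged 262, 287 and 361 CPM and Dcx 168, 152 and 214 CPM in KO metastasis, KO primary and control primary libraries. Tead2 pointed the other way, at 243, 246 and 187 CPM. The gene that fell was Tubb3, a neuronal tubulin. It was at 436, 255, 265 and 304 CPM over KO metastases 3, 4, 6 and 7, and at 180, 141, 232 and 227 CPM over KO primaries 3, 4, 6 and 7. Over controls 3 to 7 its level was 667, 705, 351, 652 and 790 CPM, above every KO primary library and above 3 of 4 metastases. The log2 change was -1.70 in KO primary (SE 0.245, edgeR adjusted p = 0.00199, kept in all 9 fits that left out 1 library) and -1.01 in KO metastasis (SE 0.239, edgeR adjusted p = 0.0357, lost in 6 of 9, without KO metastasis 4, 6 or 7 or control primary 4, 6 or 7). Sox4 and Sox11, which are known to activate Tubb3, were not called in these comparisons. The KO metastasis call for Tubb3 was also lost in the fit of the 2 groups alone (edgeR adjusted p = 0.0573) and without the libraries high in receptor counts (-0.85, edgeR adjusted p = 0.154). The latter fit kept only KO metastases 3 and 4. Without the control libraries that carried Xist, the Tubb3 call was kept in KO primary tumours and lost in KO metastases (-1.04, edgeR adjusted p = 0.203).

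The genes whose profiles across the 13 libraries lay nearest to each member were found by the smallest root-mean-square difference of centred log2 CPM among 10341 genes with a mean of at least 5 CPM (10342 for Sox3). These are descriptions, since all the profiles share the same libraries. Nearest to Sox2, whose own SD was 1.08, were Samd4 at a distance of 0.25, Zfp36l1 at 0.36 and S100a11 at 0.36. Samd4 averaged 10.5 ± 5.29 CPM in KO metastasis, 9.39 ± 2.69 CPM in KO primary and 2.36 ± 0.701 CPM in control primary libraries, and Zfp36l1 83.5 ± 19.5, 73.6 ± 9.96 and 23.3 ± 4.79 CPM. Nearest to Sox4 were Zfp771, Mocs3 and Sap30l, and nearest to Sox11 were Nr2f2, Mex3a and Ccnd2, the cyclin D2 gene, at 2021 ± 616 CPM in KO metastasis, 1402 ± 168 CPM in KO primary and 1297 ± 236 CPM in control primary libraries. Fahd2a, Bcat1 and Btg1 lay nearest to Pax6, and Zbtb11, Ints2 and Kpna3 nearest to Meis1, at distances of 0.11 to 0.17. For Rfx4, whose own SD was 1.45, the nearest were Cntn6, Ifih1 and Lmo3 at 0.74 to 0.78, so no gene followed it closely, and for Sox3 they were Sulf2, Lhfpl3 and Xylt1 at 0.46 to 0.50.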

How the data were processed

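The values are whole-number counts of reads per gene symbol, deposited by the authors for 13 libraries with no normalization. The submitters' processing notes name STAR 2.4, HTSeq 0.6.1, DESeq2 and mm10 without roles. Per the labels' protocols, a papain digest, a sort for GFP and a TruSeq RNA kit were used. Annotation release and strand setting: not given in the sources used here. Library totals of 23545383 to 41412288 counts limit precision for genes of few counts, such as Sox3.

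One edgeR 4.0.16 model (R 4.3.3) covered every library, with filterByExpr (minimum count 10, minimum total 15), TMM scaling and quasi-likelihood F tests for 3 groups, on 22265 genes. All 7 members passed the filter, in every control library. Calls required a p below 0.05 after Benjamini-Hochberg adjustment over all genes tested. The SE is the log2 change divided by the root of F, and 95% intervals use the test's degrees of freedom. Profiles used log2 CPM with a prior count of 2. The alternatives included DESeq2 1.42.0 and limma 3.58.1. The code was checked on simulated counts. Exon lengths and coordinates came from GENCODE M21, and promoters from RefSeq. The exon length of a gene is the union of the exons of all its transcripts.

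The members and gene lists were chosen with earlier results of these data known. From each list the called genes are named (at most 4), otherwise the 1 with the smallest p, and for each member the 3 nearest profiles; 1 gene named by this rule is not reported here.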

Additional observations from a re-analysis of the deposited data

Results flagged for a closer look

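Of 21 sets of libraries (each of the 7 genes in each group), 1 had a library far from the others, and chance marks about 1 in 20 such sets. Sox4 was at 541 CPM in control primary 7 and at 379 to 408 CPM in the other 4 control primary libraries, a gap of 0.82 of the whole range. The cause was not tested.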

How the results depend on the processing

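The 21 log2 changes of the members were refitted under 385 alternatives in all. Direction and side of the threshold were kept in 342, a call was lost in 8 and gained in 10, and the sign turned in 25, none of them called. For the 27 changes of listed genes, 439 of 496 refits kept both. In KO primary against control primary tumours, where 653 genes were called, DESeq2 called 1648, limma voom with quality weights 3267, the fit without the libraries high in receptor counts 1427, the fit with receptor level as a covariate 1111 and the fit without the Xist libraries 138, and leaving out 1 library gave 277 to 1032. The members called there, 1, were 2 under DESeq2, limma voom, the replicate block and without the receptor libraries (Sox2 and Rfx4 each time), 0 without the Xist libraries and 0 to 2 with 1 library left out. In KO metastases against control primary tumours, where 685 genes were called, the same settings called 1671, 3822, 1274, 1116 and 100, and leaving out 1 library gave 369 to 1199. The members called there, 1, were 2 under DESeq2 (Sox2 and Sox11), 2 under the replicate block (Sox2 and Rfx4), 4 without the receptor libraries (Sox2, Sox4, Sox11 and Rfx4), 0 without the Xist libraries and 1 in every fit with 1 library left out. The fit without the receptor libraries kept only KO metastases 3 and 4. Between KO metastases and KO primary tumours, where 1 gene was called, it was 0 with library totals only, 2 without the low-count filter, 33 under DESeq2, 2 under limma voom, 0 in the fit of the 2 groups alone, 0 under the replicate block, 5 without the receptor libraries, 0 with the receptor covariate and 0 to 1 with 1 library left out.

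The turned signs were all uncalled with edgeR over all libraries. In KO primary against control primary tumours Meis1 was -0.021 under limma voom and -0.0186 without the receptor libraries, Pax6 ranged from -0.066 to 0.29, Sox11 from -1e-04 to 0.21 and Pax5 from -0.21 to 2.66 with 1 library left out, and Rfx2 was 0.0873 without the Xist libraries. In KO metastases against control primary tumours Meis1 was -0.0109 without the receptor libraries and ranged from -0.0013 to 0.23, and Pax6 was -0.11 under limma voom. Between KO metastases and KO primary tumours Meis1 was 0.0325 under limma voom, 0.0016 in the 2 groups alone and 0.0077 without the receptor libraries, and ranged from -0.16 to 0.12. Pax6 was -0.26 under limma voom and -0.0041 under the replicate block and ranged from -0.14 to 0.20. Sox2 was -0.32 and Sox4 -0.33 under limma voom, Sox4 ranged from -0.0947 to 0.24 and Rfx4 from -1.03 to 0.0968. The cause of these shifts was not tested. With library totals only, the median change of all genes was -0.12 in KO primary and -0.10 in KO metastasis against control primary tumours.

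Replicate numbers are shared between groups, but deviations of same-numbered libraries correlated at 0.36, 0.49, 0.00 and 0.68 between KO metastases and KO primary tumours, and not every library correlated best with its own number, so the numbers were not taken to pair the libraries. The value of 0.68 is that of KO metastasis 7 and KO primary 7, both high in receptor counts. KO metastasis 6, also high, correlated with KO primary 7 at 0.69. Under the replicate block 672, 0 and 639 genes were called in KO primary against control primary, KO metastasis against KO primary and KO metastasis against control primary tumours, Rfx4 passed in KO primary (2.10, adjusted p = 0.0144) and KO metastasis (1.64, 0.0375) against control primary, and Sox9 did not pass in KO metastasis (0.81, 0.0900).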
